A study of Brachypodium distachyon with 8 samples.

Results

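The comparison described here sets leaves of *Brachypodium distachyon* Bd21-3 that overexpressed *LNJ* against wild-type leaves, both from plants sprayed with methyl jasmonate (MeJA). It uses 4 of the 8 mRNA-seq libraries of the series, 2 for each genotype, and the 4 libraries of mock-treated plants serve as its background. All 8 libraries came from leaves of young adult plants of the same inbred line, and per the methods each was made from RNA of several pooled plants. MeJA was applied by repeated spraying in a Tween solution, and the mock solution was Tween alone. The methods describe more than one spraying schedule. The one given for RNA work ended with a harvest shortly after the last of several sprays, and the paragraph on sequencing names none. The overexpressing plants carried the *LNJ* coding sequence in the binary overexpression vector pIPKb003. Per the study, *LNJ* is a possible splice form of a longer gene for a NINJA-type protein, of which the annotated *LNJ* locus lacks the initial exon, and whether Brachypodium makes such a short protein is unknown. Several independent lines were made, and the line that was sequenced is not given in the sources used here, so an effect of *LNJ* and an effect of one insertion cannot be told apart. In bulk leaf RNA, fewer cells of a type and less RNA per cell cannot be told apart either.

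The genotype of every library is given in 2 ways that contradict each other. The sample labels call libraries 1 to 4 wild type and libraries 5 to 8 MTL-OX, whereas the deposited tables of libraries 1 to 4 carry ABI, taken here as the name of the overexpressor, and those of libraries 5 to 8 carry WT. The members were chosen by the table names, so libraries 3 and 4 are called the OX-named MeJA libraries and libraries 7 and 8 the WT-named MeJA libraries. Libraries 1 and 2 are the OX-named and libraries 5 and 6 the WT-named mock libraries. Each difference is given as OX-named minus WT-named, and each direction turns if the sample labels are right.

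Jasmonates are lipid-derived hormones that plants use in defence against herbivores and pathogens and in the control of growth, and MeJA is the volatile methyl ester of jasmonic acid. Without the hormone, JAZ repressors bind MYC-type transcription factors, and the adaptor NINJA links JAZ to the corepressor TOPLESS, which keeps response genes off. The bioactive hormone brings JAZ to the receptor COI1 and thereby to degradation by the proteasome, and the factors are released. LITTLE NINJA (LNJ) is a microProtein, a small protein related to a larger family member. It contains the domain by which NINJA proteins contact JAZ, but in the study's yeast assays LNJ bound NINJA and not JAZ. There it weakened the pairing of NINJA with itself and left that of NINJA with JAZ unaffected. The comparison therefore addresses which transcripts differ in hormone-treated leaves when such a small NINJA-like protein is in excess.

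Values are FPKM (fragments relative to transcript length and to a library's mapped total), divided by a median-ratio factor for each library and called scaled FPKM. The 8 libraries held between 13452995 and 15821699 implied fragments, a number derived from the confidence bounds of the tables, and between 19514 and 19959 genes lay above 0. Scaling factors were 1.063 and 1.073 for libraries 3 and 4 and 0.993 and 1.106 for libraries 7 and 8. Across the 14620 genes tested, the log2 levels of libraries 3 and 4 correlated with r = 0.991, and 68 genes differed 2-fold between them. Libraries 7 and 8 were less alike, with r = 0.975 and 459 genes that differed 2-fold. These correlations run across genes, which are not independent replicates.

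*LNJ* (BRADI1G69970), the locus that the transgene's sequence matches, was examined first. The tables place it at bases 68443871 to 68444179 of chromosome 1, over 309 bp, on an assembly that the sources used here do not name. Its level was 562 and 541 scaled FPKM in libraries 3 and 4, from 781 and 715 fragments. It was listed at 0 in library 7 and at 0.75 scaled FPKM in library 8, from 1 fragment. The groups were far apart, and *LNJ* ranked at 168 and 170 by level in libraries 3 and 4 among all listed identifiers, tested or not. Its mean was 551 ± 14.4 scaled FPKM (SD, n = 2) in the OX-named MeJA libraries. Against a floor of 3 fragments per library, which is 2.21 scaled FPKM at this locus, *LNJ* was at least 249-fold higher there. On the log2(scaled FPKM + 1) scale the difference was 8.70 (standard error, SE, 0.25, limma with Benjamini-Hochberg adjusted p = 8.11e-05). A construct with the same coding sequence gives fragments at this locus too, so transcripts of the transgene and of the endogenous locus, in its short or longer form, cannot be told apart.

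In mock-treated plants *LNJ* had 657 and 734 scaled FPKM in the OX-named libraries and was listed at 0 in both WT-named ones, a log2 difference of 9.44 (adjusted p = 4.65e-05 from limma). The *LNJ* level thus followed the table names in all 8 libraries and went against the sample labels. The differences under MeJA and mock were 0.74 apart on the log2 scale, lower under MeJA, which did not pass the threshold (adjusted p = 0.99955 from limma for the difference of the 2 contrasts).

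**Figure D1:**
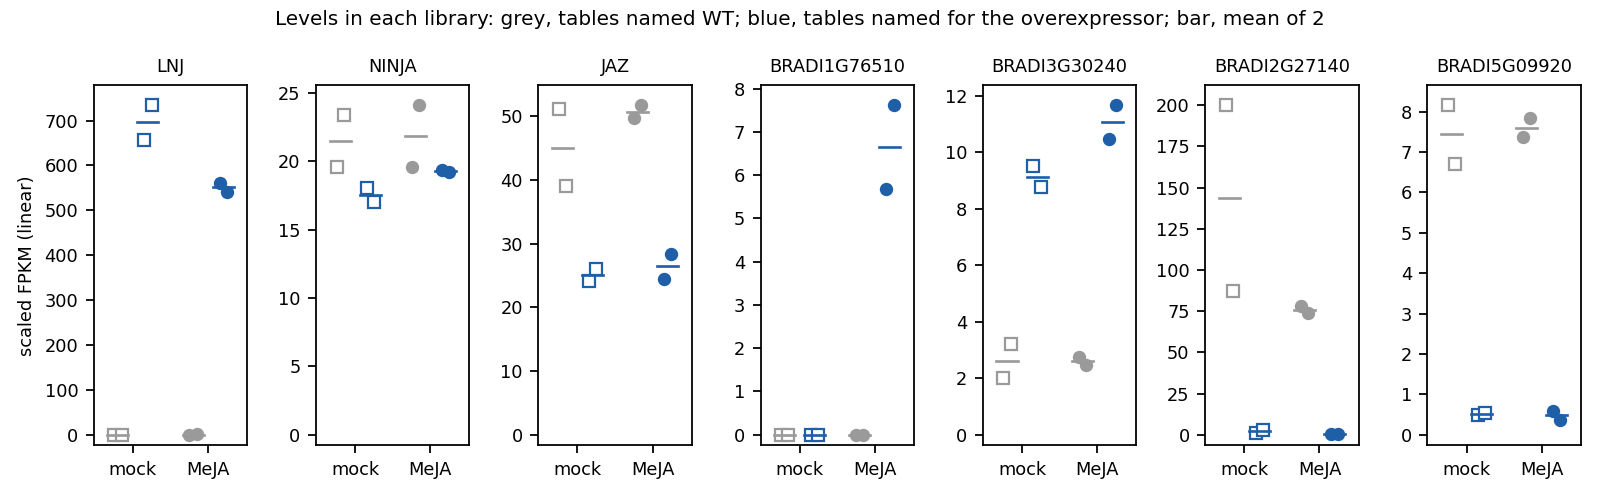
Scaled FPKM (linear axes from 0) of the 7 named genes in each library, with squares for mock and circles for MeJA, grey for WT-named and blue for OX-named libraries, and a bar at the mean of 2. *LNJ* was at 541 or more in the OX-named libraries and at most at 0.75 in the WT-named ones, and BRADI1G76510 was above 0 in the OX-named MeJA libraries alone. Colours follow the table names, which the sample labels contradict.

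*NINJA* (BRADI2G11790, chromosome 2 from 10109219 to 10112903), the adaptor to which LNJ is related, differed little. Its level was 19.4 and 19.2 scaled FPKM in libraries 3 and 4, and 19.6 and 24.1 scaled FPKM in libraries 7 and 8. The OX-named values lay just below the WT-named ones, and library 8 alone stood apart. The log2 difference was −0.17 (SE 0.15, 95% interval −0.53 to 0.20, adjusted p = 0.586 from limma), and in mock-treated plants it was −0.27 (adjusted p = 0.432 from limma). The interval under MeJA excludes a 2-fold difference in either direction.

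*JAZ* (BRADI1G21490, chromosome 1 from 17327516 to 17329243), the JAZ gene used in the study's yeast assays, had 24.5 and 28.3 scaled FPKM in libraries 3 and 4. Other JAZ genes were not identified here. *JAZ* had 49.7 and 51.7 scaled FPKM in libraries 7 and 8. The 2 groups did not overlap, with means of 26.4 ± 2.7 and 50.7 ± 1.43 scaled FPKM (SD, n = 2). The log2 difference was −0.92 (SE 0.17, 95% interval −1.31 to −0.52), which missed the threshold after adjustment over all genes (unadjusted p = 0.00095, adjusted p = 0.169 from limma). In mock-treated plants *JAZ* had 24.1 and 26.02 scaled FPKM in the OX-named libraries and 51.1 and 39.0 scaled FPKM in the WT-named ones, again without overlap. That log2 difference was −0.81 (adjusted p = 0.183 from limma). The contrasts under MeJA and mock differed by −0.11 (SE 0.24, unadjusted p = 0.66, limma). The *JAZ* level thus lay lower in all 4 OX-named libraries than in all 4 WT-named ones, without passing the threshold under either treatment. Of all genes tested, 29.8% lay lower without overlap under MeJA and 22.1% under mock, so the lack of overlap alone does not set *JAZ* apart. The share that did so under both treatments was not computed.

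Over all genes, few differences passed the threshold of an adjusted p of at most 0.05 and a 2-fold difference. Of the 14620 genes tested, 5 were higher in the OX-named MeJA libraries (0.0342%) and 6 were lower (0.041%), 11 in all (0.0752%), by limma with Benjamini-Hochberg adjustment, and *LNJ* was one of the 5. At an unadjusted p below 0.05 there were 2591 genes (17.7%), 1476 higher (10.1%) and 1115 lower (7.63%). Both counts moved with single libraries. Without library 3 the test called 1 gene higher and 0 lower, without library 4 it called 1 and 1, without library 7 it called 2 and 8, and without library 8 it called 1 and 0. Leaving out a mock library changed the shared estimate of the spread, with 2 higher and 4 lower without library 1 or library 2, 9 and 19 without library 5, and 8 and 19 without library 6. *LNJ* itself passed in each of these fits. No gene name stands in the tables for the other 10 genes, so 2 identifiers in each direction are described and the rest are given by locus, with no role assigned.

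**Figure D2:**
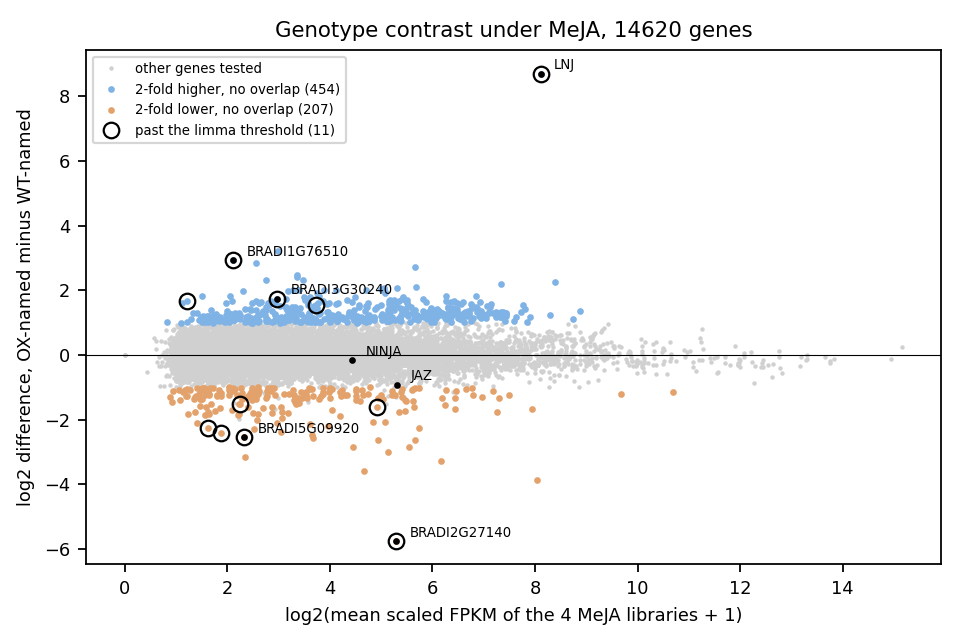
Log2 difference between OX-named and WT-named MeJA libraries (y axis) against log2 of the mean scaled FPKM plus 1 of the 4 MeJA libraries (x axis) for 14620 genes, with the 7 named genes marked by black points. *LNJ* at 8.70 and BRADI2G27140 at −5.75 lie apart from the rest, whereas *JAZ* at −0.92 and *NINJA* at −0.17 lie within the cloud. Signs turn if the sample labels are right.

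BRADI2G27140, on chromosome 2 from 25887532 to 25891726, showed the largest difference among the 6. It had 0.33 and 0.53 scaled FPKM in libraries 3 and 4, from 9 and 14 fragments, and 77.9 and 73.9 scaled FPKM in libraries 7 and 8, from 1955 and 2239 fragments. The log2 difference was −5.75 (SE 0.40, limma adjusted p = 0.00602). The gene was near 0 in the OX-named MeJA libraries and well expressed in the WT-named ones. Mock-treated plants, whose libraries enter the MeJA test through the scaling, the filter and the shared spread but not through the difference itself, gave 1.30 and 2.81 scaled FPKM against 200.1 and 87.1, a log2 difference of −5.49 (adjusted p = 0.00589 from limma). The call under MeJA was lost when library 3, 4, 7 or 8 was left out, at adjusted p-values of 0.143, 0.0976, 0.0539 and 0.108 from limma, with log2 differences that stayed between −5.85 and −5.65. It was also lost with no filter on low values (limma adjusted p = 0.0598) and with voom on the implied fragments (adjusted p = 0.0843).

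BRADI5G09920, on chromosome 5 from 13194540 to 13201852, was low in the OX-named libraries under both treatments. Under MeJA it had 0.59 and 0.38 scaled FPKM in the OX-named libraries and 7.36 and 7.84 scaled FPKM in the WT-named ones, a log2 difference of −2.54 (SE 0.15, limma adjusted p = 0.0038). After mock treatment it had 0.48 and 0.54 scaled FPKM against 8.16 and 6.71, a log2 difference of −2.48 (adjusted p = 0.00368 from limma). Neither treatment brought the OX-named libraries above 0.6 scaled FPKM. Without library 3, 4 or 8 the adjusted p under MeJA was 0.0566, 0.0684 and 0.0804 (limma).

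The remaining 4 genes that were lower lie on chromosomes 1 and 2. A gene on chromosome 2 from 21550056 to 21559543 had 0.20 and 0.13 scaled FPKM in libraries 3 and 4 and 4.92 and 5.44 in libraries 7 and 8 (log2 difference −2.41, adjusted p = 0.0038 from limma), and in mock-treated plants its log2 difference was −2.47. A gene on chromosome 1 from 14755966 to 14759931 was listed at 0 in library 3 and had 0.12 scaled FPKM in library 4, against 4.46 and 3.68 in libraries 7 and 8 (log2 difference −2.26, adjusted p = 0.0144 from limma). These 2 genes also passed the threshold in mock-treated plants, as did BRADI2G27140 and BRADI5G09920. The other 2 did not: a gene on chromosome 2 from 48554741 to 48559405 had 12.1 and 15.7 scaled FPKM against 42.7 and 46.4 (log2 difference −1.62), and its mock difference was −0.66 (adjusted p = 0.199 from limma). A gene on chromosome 2 from 32936982 to 32937508 had 1.29 and 1.67 scaled FPKM against 5.64 and 6.48 (log2 difference −1.51), from at most 9.6 fragments in the OX-named MeJA libraries, and its mock difference was −0.80 (adjusted p = 0.163 from limma). For these 2 genes the OX-named level was lower under MeJA than under mock, but the differences between contrasts, −0.96 and −0.71, had an adjusted p of 0.99955 (limma).

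Among the genes that were higher, BRADI3G30240, on chromosome 3 from 32299186 to 32302091, had 10.5 and 11.7 scaled FPKM in libraries 3 and 4 and 2.74 and 2.46 scaled FPKM in libraries 7 and 8. The groups were clearly separated, with a log2 difference of 1.75 (SE 0.18, limma adjusted p = 0.0416). In mock-treated plants it had 9.50 and 8.76 scaled FPKM against 2.02 and 3.23, a log2 difference of 1.50 that did not pass the threshold (adjusted p = 0.0771 from limma). This call lay close to the threshold and was lost when library 1, 2, 3, 4, 7 or 8 was left out, with adjusted p-values from 0.103 to 0.482 (limma). It was also lost with a pseudocount of 0.1, without a filter, with a mean of at least 5 FPKM, without scaling and with voom, with limma adjusted p-values of 0.0663, 0.138, 0.0805, 0.0536 and 0.0843 in that order.

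BRADI1G76510, on chromosome 1 from 73082489 to 73085333, had fragments in libraries 3 and 4 alone. Its level there was 5.69 and 7.62 scaled FPKM, from 103 and 142 fragments, and it was listed at 0 in the other 6 libraries. Against the floor of 3 fragments per library, 0.163 scaled FPKM at this locus, it was at least 40.8-fold higher in the OX-named MeJA libraries. The fitted log2 difference was 2.92 (adjusted p = 0.00452 from limma), which depends on the added constant. The gene passed the filter on low values only through libraries 3 and 4. Groups listed at 0 throughout also make its spread look small, so this p-value lends the difference no support. The difference between its contrasts under MeJA and mock was also 2.92 (adjusted p = 0.0837 from limma).

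The locus of BRADI1G76510 overlaps BRADI1G76500, which the tables list from 73079404 to 73083023. BRADI1G76500 had 28.7 and 32.0 scaled FPKM in libraries 3 and 4 and 63.1 and 67.0 scaled FPKM in libraries 7 and 8, a distribution opposite to that of its neighbour. When the FPKM of both loci were added, the log2 difference was −0.80 (adjusted p = 0.206 from limma), so the direction turned and the call was lost. How Cufflinks divided fragments of the shared stretch between the 2 genes was not tested. The call was also lost without library 3, 4 or 8, at adjusted p-values of 0.0566, 0.0918 and 0.0804 (limma), and with a pseudocount of 0.1, where the log2 difference was 6.06 (SE 0.88, limma adjusted p = 0.129).

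The other 2 higher genes lie on chromosome 2. A gene from 35076621 to 35079400 had 2.53 and 2.54 scaled FPKM in libraries 3 and 4 and 0.11 and 0.14 scaled FPKM in libraries 7 and 8, the latter from 4 and 6 fragments (log2 difference 1.65, adjusted p = 0.0467 from limma). A gene from 30874552 to 30880183 had 18.8 and 18.9 scaled FPKM against 5.22 and 6.46, from 367 or more fragments per library (log2 difference 1.54, adjusted p = 0.0271 from limma). Their log2 differences in mock-treated plants were 1.51 and 1.39, and only the latter passed the threshold there (adjusted p = 0.0694 and 0.0366 from limma).

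The genotype contrast in mock-treated plants called 4 genes higher (0.0274%) and 6 lower (0.041%) of 14620, or 0.0684% in either direction. Of the 5 genes higher under MeJA, 2 were also called there, *LNJ* among them, and 4 had the same sign. The exception was BRADI1G76510, at 0 in all mock libraries. Of the 6 lower genes, 4 were also called and 6 had the same sign. Both contrasts used the same spread for each gene, so a call under mock is not independent of the call under MeJA. For no gene did the contrasts under MeJA and mock differ past the threshold by limma, and none did by voom on the implied fragments. At an unadjusted p below 0.05 they differed for 630 genes (4.31%). A difference between the genotypes that depends on MeJA was thus not detectable for any gene at this depth and number of libraries in the test as described, while the number became 8 without a filter on low values.

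A wider view came from genes whose scaled FPKM differed 2-fold on the log2(scaled FPKM + 1) scale with no overlap between the groups, a rule with no test. Under MeJA 454 genes were higher in the OX-named libraries by this rule (3.11% of those tested) and 207 were lower (1.42%). After mock treatment 129 were higher (0.882%) and 159 lower (1.09%). Without the 2-fold condition, 4295 genes (29.4%) lay higher and 4355 (29.8%) lay lower without overlap under MeJA, and 21.9% and 22.1% did under mock. In most genes on the lists the difference was moderate: the median log2 difference was 1.25 among the 454 and −1.27 among the 207, and 20 and 25 genes reached 4-fold, a log2 difference of 2 in size. The shift of all genes was small, with a median log2 difference of −0.011.

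The excess of higher genes was not met when library 8 was left out. Of the 454 genes, 412 had a lower level in library 8 than in library 7, so that library 8 lay farther from the OX-named libraries. Of the 207 lower genes, library 8 lay farther in 108 and library 7 in 99. The same share over all genes tested was not computed, and the lists were chosen with the values of these libraries. With a library left out, no overlap is asked of fewer libraries and is more easily met. Without library 8 the lists held 211 higher and 266 lower genes, and the larger number changed sides. Without library 7 they held 762 and 302, without library 3 439 and 199, and without library 4 494 and 270. Scaling had less influence under MeJA, where unscaled FPKM gave 490 higher and 201 lower genes, than under mock, where it gave 353 and 91. Library 8 also had the largest scaling factor of the 8 libraries, and its part in the lists was not tested beyond these counts.

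**Figure D3:**
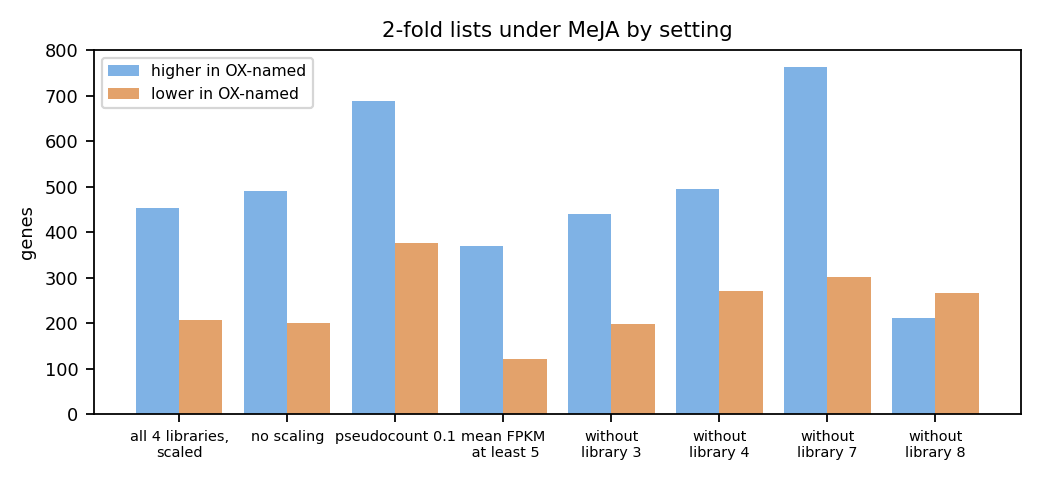
Number of genes (y axis, from 0) on the lists that were 2-fold higher (blue) or lower (orange) in the OX-named MeJA libraries without overlap, under each setting (x axis). Higher genes outnumber lower ones, 454 against 207, in all settings shown except without library 8, where there are 211 against 266. Blue and orange exchange meaning if the sample labels are right.

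Many of the listed genes had a difference of the same sign in the mock libraries, whose levels entered the lists only through the scaling and the filter on low values. Of the 454 higher genes, 424 (93.4%) were also higher in the OX-named mock libraries, where 50.9% of all tested genes were. Their median log2 difference was 1.25 under MeJA and 0.78 under mock, and 41 of them also reached the 2-fold rule under mock (9.0% of the MeJA list and 31.8% of the mock list). Of the 207 lower genes, 182 (87.9%) were lower under mock as well, where 49.1% of all tested genes were, with medians of −1.27 and −0.69. Among these, 53 reached the 2-fold rule under mock (25.6% of the MeJA list and 33.3% of the mock list). In the opposite direction 4 and 1 genes reached it. Across all 14620 genes the differences under MeJA and mock correlated with r = 0.605, in libraries that share no sample but share the genotypes.

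**Figure D4:**
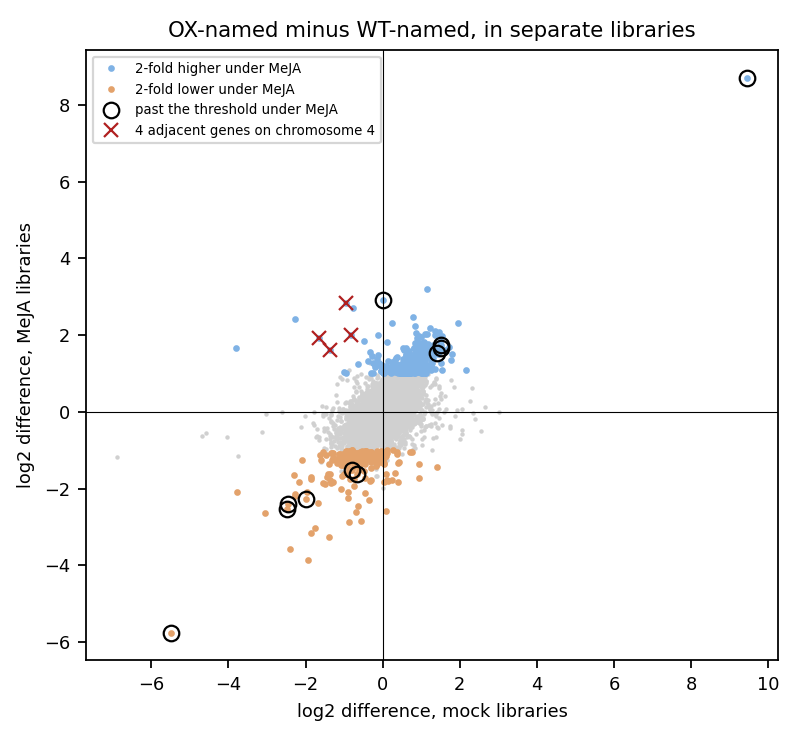
Log2 difference between OX-named and WT-named libraries under MeJA (y axis) against the same under mock (x axis), with the 2-fold lists in blue and orange and the genes past the threshold circled. Most listed genes lie on the same side of 0 in both, 424 of 454 and 182 of 207, whereas the 4 adjacent genes of chromosome 4 (crosses) lie on opposite sides. Both axes turn if the sample labels are right.

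The levels behind the lists are given by treatment as a description, since the MeJA libraries chose the genes. The 454 higher genes had a median level of 26.5 scaled FPKM in the OX-named MeJA libraries and 23.3 in the OX-named mock libraries. In the WT-named libraries it was 10.6 under MeJA and 15.7 under mock, and 10.6% of the genes lay higher under MeJA than under mock there, against 52.4% in the OX-named libraries. The median log2 differences between MeJA and mock were −0.50 and 0.01, respectively. The 207 lower genes had medians of 3.04 and 4.83 scaled FPKM in the OX-named MeJA and mock libraries and of 11.4 and 8.79 scaled FPKM in the WT-named ones. Of these genes 23.2% lay higher under MeJA than under mock in the OX-named libraries (median log2 difference −0.40) and 62.8% in the WT-named libraries (median 0.21). Over all genes tested the median levels lay between 8.03 and 8.28 scaled FPKM. Of all genes tested, 48.3% lay higher under MeJA than under mock in the OX-named libraries and 47.6% in the WT-named ones. The median log2 differences between MeJA and mock were −0.01 and −0.02 there.

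Genes on the higher list were more frequent among strongly expressed genes under the main setting. They made up 1.7% of the tested genes with a mean below 5 scaled FPKM, 2.5% between 5 and 20, 5.6% between 20 and 100, and 6.3% above 100. Lower genes made up 1.7%, 1.2%, 1.6% and 1.0% in the same ranges. By chromosome, the share of higher genes ran from 2.06% on chromosome 5 to 3.51% on chromosome 4, and that of lower genes from 1.22% on chromosome 4 to 1.62% on chromosome 5.

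Listed genes also lay next to each other. Of the 454 higher genes, 58 (12.8%) had a higher gene as the adjacent tested gene, a position held by 6.1% of all tested genes, and of the 207 lower genes 20 (9.7%) had a lower neighbour, against 2.8%. These were 27 pairs and 1 run of 4 among the higher genes and 10 pairs among the lower ones. The run of 4, singled out after its values were seen, lies on chromosome 4 from 4702981 to 4726983. It was higher in the OX-named libraries under MeJA and lower under mock. Its most strongly expressed gene had 56.8 and 21.5 scaled FPKM in libraries 3 and 4 and 19.9 and 5.64 in libraries 7 and 8, with 33.0 and 40.9 in the OX-named and 150.7 and 61.2 in the WT-named mock libraries. Its replicates thus differed by more than 2-fold in 3 of the 4 groups. Log2 differences of the 4 genes ran from 1.62 to 2.83 under MeJA and from −1.65 to −0.82 under mock. None passed the threshold, with adjusted p-values of 0.221 to 0.287 under MeJA and of 0.99955 for the difference between the contrasts (limma).

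Transcripts that carry a name in the tables gave a check on composition. The 42 BRADI identifiers with a gene name were taken as plastid-type protein genes, without a separate check of that class. Of these, 24 were tested, none was called and none had an unadjusted p below 0.05 by limma (median log2 difference −0.10). Over all genes tested these shares were 0.0752% and 17.7%. With so few genes called anywhere, the absence of a call among 24 says little. Voom was not summarised for them. Their summed level was 839 and 634 scaled FPKM in libraries 3 and 4 and 908 and 843 in libraries 7 and 8. Ribosomal RNA loci lay to one side: 43 of 78 were tested, and all 43 lay below 0 (median −0.29, against −0.011 for all genes). Of all 14620 genes tested, 7499 lay below 0. None of the 43 was called and 1 had an unadjusted p below 0.05 by limma, beside the same shares over all genes. The loci were measured in the same libraries and are not independent replicates. Their sum was 13357 and 16577 scaled FPKM in libraries 3 and 4 against 19110 and 22297 in libraries 7 and 8. In mock-treated plants it was 19217 and 22042 against 35905 and 24635. The part of this residual ribosomal RNA in the differences above was not tested.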

How the data were processed

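RNA of 8 leaf samples was sequenced as TruSeq libraries. The labels name FastQC, TopHat2 and Cufflinks, and the deposited unit is FPKM per gene with confidence bounds, 1 table per sample, estimated by the authors from aligned read pairs without pooling. The assembly is not given in the sources used here. Each table has 27833 rows for 27830 identifiers, rows with 1 identifier were summed, and 1 row without an identifier was left out. Fragments were derived from FPKM and its upper bound, by squaring the quotient of 2 FPKM and their distance. Values under 20 fragments came out whole within 0.01 in 78.9% to 80.3% of cases. Such fragments cover counting error only.

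FPKM were divided by each library's median ratio to the geometric means of 17713 genes. limma 3.58.1 in R 4.3.3 was fitted to log2(scaled FPKM + 1), with 1 mean for each of 4 groups, 8 libraries, 4 residual degrees of freedom and a mean-variance trend. Differences on this scale understate those of genes with low values. The 14620 genes tested had a mean of at least 1 FPKM and 10 fragments. Several called genes near 0 in the libraries of either genotype passed this filter only through those of the other. Calls needed a Benjamini-Hochberg adjusted p of at most 0.05 and a 2-fold difference. The script was tested on simulated data. Figures were drawn with matplotlib 3.10.9.

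Members and lists were chosen with earlier results of these data known. Named genes were the 3 with an identifier in the study (*LNJ*, *NINJA* and *JAZ*) and the called genes with the largest difference, at most 2 unnamed identifiers in each direction. Gene lists by function and promoter motifs were not analysed here, since no description or sequence was matched to the identifiers. Samples were grouped by their labels, with each contrast named by the tables. Alternatives were a pseudocount of 0.1, no filter, no minimum of fragments, 5 FPKM, no scaling, the 4 MeJA libraries alone, an adjusted p of 0.001, no trend, voom, and each library left out.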

Additional observations from a re-analysis of the deposited data

How the results depend on the processing

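The number of genes higher in the OX-named MeJA libraries was 5 and became 2 with a pseudocount of 0.1, 2 with a mean of at least 5 FPKM, 3 with the 4 MeJA libraries alone, 1 at an adjusted p of 0.001, 3 with voom and 3 when overlapping loci were summed, an alternative chosen after seeing the data. It ran from 1 to 9 over the fits that leave out 1 library. The number of lower genes was 6 and became 2 with a mean of at least 5 FPKM, 0 at an adjusted p of 0.001 and 3 with voom, and it ran from 0 to 19 with each library left out. The number of genes whose contrasts differed between MeJA and mock was 0 and became 8 without a filter, 2 without a minimum of fragments and 3 without a trend, and it ran from 0 to 1 with each library left out. BRADI1G76510 turned from 2.92 to −0.80 when summed with its overlapping gene, because that gene lay higher in the WT-named libraries. Besides the settings given with each gene, the stricter adjusted p of 0.001 ended the calls of the 4 named genes other than *LNJ*. The *LNJ* difference kept its direction and call in all settings run, between 8.30 and 10.88. *JAZ* stayed below the threshold in all settings run, between −1.02 and −0.82 with each library left out, at adjusted p-values of 0.0655 to 0.663 (limma). *NINJA* ran from −0.31 to −0.025. The 2-fold lists, recomputed under settings chosen after seeing the data, held 688 higher and 376 lower genes with a pseudocount of 0.1 and 369 and 121 with a mean of at least 5 FPKM. A library left out leaves 1 library in its group, which is then assumed to vary like the other groups. With 2 libraries in each group, p-values measure the spread between pooled samples only, and of the genes on the 2-fold lists 14 and 17 had a mean of under 30 fragments.

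No paired analysis was possible because the labels number the libraries from 1 to 8 and no number is shared between groups.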
